A study of Homo sapiens with 6 samples.

Results

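The genes examined were the zinc finger genes of human chromosome 19 whose symbol is ZNF followed by a number and at most 1 letter. Every alternative splicing event of such a gene with readable counts was taken if its junction reads averaged at least 10 over the 6 libraries. This gave 484 events in 146 genes, of 66395 events in 10146 genes in the whole data set. Before this minimum of reads, 730 events in 181 such genes were listed. The events with the fewest reads among those taken had a mean of 10 reads per library, and those with the most reads among those left out had a mean of 9.83. The cells were NCI-H1975, an established human lung adenocarcinoma (LUAD) line. Control cells received the empty PCDNA3.1 plasmid and SAM68 cells a PCDNA3.1 plasmid carrying SAM68 (2 µg per well), both with lipofectamine and for 48 h, so that all cells were transfected and both groups carried the vector. Each group had 3 libraries of total RNA, and the overexpression was a transient transfection of 1 line. The order of the groups in the deposited lists was read from the study, since the columns name no group, and libraries are given here by their position in the list.

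ZNF genes encode proteins with tandem C2H2 zinc fingers that bind DNA, and chromosome 19 carries large clusters of them that arose by gene duplication. Many also carry a KRAB domain near the amino end, whose A box and B box are usually encoded by an exon each, upstream of a single long exon that encodes all the fingers. The KRAB A box recruits the corepressor TRIM28, through which these proteins silence retrotransposons and other targets. SAM68, encoded by KHDRBS1, is an RNA-binding protein that regulates alternative splicing.

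The skipped exons of these genes showed a pair of recurring lengths, those usual for exons of the A box and of the B box (96 nt), called A-length and B-length here. The printed sequences show the A length in full. Representative sequences are given because near-identical exons of many genes are the units whose inclusion was measured. They were read from the hg38 sequence of the plus or minus strand, 5′ to 3′, and capitals mark bases that at least 90% of the coding member exons of that length shared. A-length exons from ZNF569 (chr19:37426252-37426378, minus strand), ZNF91 (chr19:23374638-23374764, minus strand), ZNF283 (chr19:43837053-43837179, plus strand), ZNF274 (chr19:58185712-58185838, plus strand) and ZNF814 (chr19:57876916-57877042, minus strand) read as follows.
ZNF569 A-length: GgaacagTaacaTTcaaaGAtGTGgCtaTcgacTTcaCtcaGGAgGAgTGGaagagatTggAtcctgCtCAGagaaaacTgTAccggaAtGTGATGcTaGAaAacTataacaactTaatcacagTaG
ZNF91 A-length: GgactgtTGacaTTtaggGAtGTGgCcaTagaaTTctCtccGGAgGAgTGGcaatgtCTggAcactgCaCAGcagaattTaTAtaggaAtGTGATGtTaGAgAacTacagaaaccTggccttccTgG
ZNF283 A-length: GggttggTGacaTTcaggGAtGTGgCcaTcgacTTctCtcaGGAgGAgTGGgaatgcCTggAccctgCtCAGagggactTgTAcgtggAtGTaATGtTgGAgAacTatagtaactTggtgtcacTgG
ZNF274 A-length: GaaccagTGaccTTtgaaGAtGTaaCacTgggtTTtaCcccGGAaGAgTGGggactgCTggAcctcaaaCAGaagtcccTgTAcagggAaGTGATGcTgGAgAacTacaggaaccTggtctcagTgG
ZNF814 A-length: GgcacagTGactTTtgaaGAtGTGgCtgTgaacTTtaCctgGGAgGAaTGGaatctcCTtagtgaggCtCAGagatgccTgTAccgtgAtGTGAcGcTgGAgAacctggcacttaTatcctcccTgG
B-length exons from ZNF274 (chr19:58186947-58187042, plus strand), ZNF527 (chr19:37380277-37380372, plus strand) and ZNF100 (chr19:21744017-21744112, minus strand) read as follows.
ZNF274 B-length: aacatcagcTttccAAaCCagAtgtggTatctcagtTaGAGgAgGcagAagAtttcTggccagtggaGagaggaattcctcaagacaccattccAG
ZNF527 B-length: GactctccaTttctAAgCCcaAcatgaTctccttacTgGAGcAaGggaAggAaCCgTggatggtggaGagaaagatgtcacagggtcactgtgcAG
ZNF100 B-length: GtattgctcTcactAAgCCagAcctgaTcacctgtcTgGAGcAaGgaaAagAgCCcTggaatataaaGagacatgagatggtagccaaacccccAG

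Among the 52 coding A-length exons, 48 positions held the same base in at least 90% of exons and 18 in every exon. No 2 of these exons were identical. The median identity of an exon to its nearest relative was 91.3% (range 73.2% to 98.4%), against a median of 67.7% over all pairs. The 18 coding B-length exons were less alike, with 22 positions shared by at least 90% of exons and a median identity to the nearest relative of 84.9% (range 61.5% to 93.8%). Reads can be shared between such copies. Of the 376 skipped exon events, 72 events in 30 genes had a 50-nt window across a junction that also occurs in a transcript of another gene, and for 22 of them the other gene was a ZNF gene. Among the skipped exon events described by name below, only that of ZNF826P had such a window. All 3 windows of each were searched, except for ZNF814, where 1 could be searched. The other types of event, tandem sites and mutually exclusive exons among them, were not searched for shared windows.

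The skipped exons were more often coding than untranslated. Of 316 distinct skipped exons, 229 were coding in GENCODE 44, 55 lay in 5′ untranslated regions (UTRs), 5 in 3′ UTRs, 21 in noncoding transcripts and 6 matched no annotated exon. The A length made up 17.1% of them (54 exons), against 0.801% of the 38685 distinct skipped exons of all genes. The B length made up 6.33% (20 exons), against 1.2% of all. Lengths that are multiples of 3, which keep the reading frame when the exon is skipped, made up 31.3%, against 40.5% of all. The motif TTAAA, searched on the transcribed strand within each exon and 100 nt on both sides, occurred in 39.6% of the member exons and in 41.7% of the exons of all genes.

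Exons of the 2 KRAB lengths were mostly included in these cells, as skipped exons of all genes were, whereas the inclusion of skipped exons in 5′ UTRs spread over the whole range. Inclusion is given as percent spliced in (PSI), the share of the inclusion form after each form's junction reads are divided by its effective length. The 69 events on A-length exons (53 genes) had a median PSI over the 6 libraries of 95.03%, and 50 of them lay above 90%, 17 between 10% and 90% and 2 below 10%. The share above 90% was 72.5%, against 71.5% for exons of that length in all genes and 72% for all 47450 skipped exon events, whose median was 98.3%. The 26 events on B-length exons (19 genes) had a median of 96.4%, with 21 above 90% (80.8%, against 77.1% for that length in all genes). The 67 events on exons in 5′ UTRs (34 genes) had a median of 38.3%, with 17 above 90%, 36 between 10% and 90% and 14 below 10%. In the 11 genes with an event of each length, the A-length exon had the higher PSI in 5 and the B-length exon in 6. Over all 5 types of event, 39.7% of the member events had a PSI of 10% to 90%, against 23.4% of all events. Chromosome 19 genes outside the family had 21.3% of events in that range and ZNF genes of other chromosomes 33.5%. These shares were not compared by a test, and the member events were shallower, with a median of 27.1 reads per library against 111.3 over all events.

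**Figure D1:**
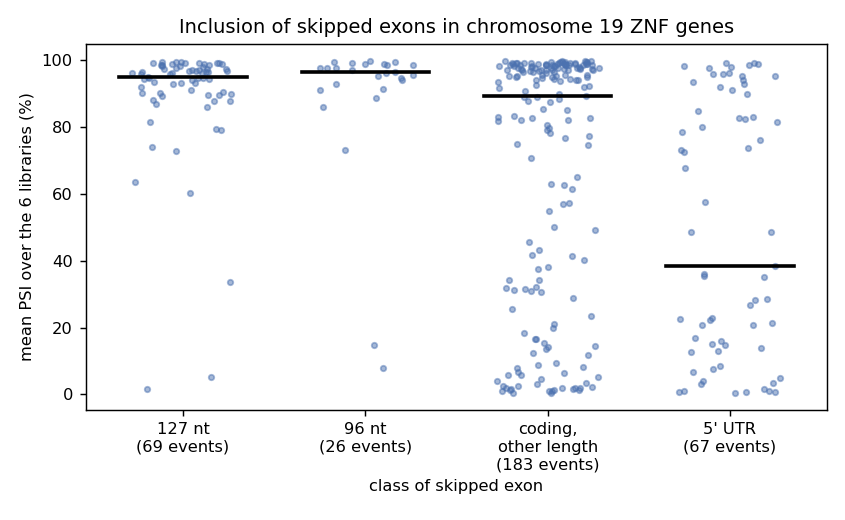
Each point is the mean PSI over the 6 libraries (vertical axis, %) of 1 skipped exon event in a chromosome 19 ZNF gene, by class of exon on the horizontal axis, and bars are medians. The medians are 95.03% for A-length exons, 96.4% for B-length (96 nt) exons, 89.3% for coding exons of other lengths and 38.3% for exons in 5′ UTRs.

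The A-length exon of ZNF814 had an intermediate inclusion in the event chosen by the rule for named events (up to 3 with the most reads and a PSI of 10% to 90%). Control libraries gave a PSI of 60.4%, 50.4% and 69.0% and SAM68 libraries 67.8%, 63.2% and 51.5%, so the groups overlapped. Group averages were 59.9% ± 9.3 (SD, n = 3) for control and 60.8% ± 8.39 (SD, n = 3) for SAM68, from 24 to 70 reads per library. An exon can stand in several events with other flanking exons, and 2 further events on this exon gave 72.5% to 100% and 85.4% to 100% over the libraries, so the intermediate value belongs to 1 event and not to the exon as such. In ZNF283 the A-length exon gave 88.2%, 93.6% and 87.5% under control and 81.7%, 100% and 86.8% under SAM68, which also overlapped. ZNF274 encodes a protein that brings the histone methyltransferase SETDB1 to the 3′ ends of other ZNF genes. Its A-length exon, in the event chosen by the rule, gave 94.0%, 100% and 80.2% under control and 86.5%, 84.6% and 92.6% under SAM68. A deeper event on that exon (mean 99.7 reads per library) gave 96.2%, 98.2% and 100% under control and 100% in each SAM68 library, a difference of 1.87 points. Its B-length exon, likewise in 1 event, gave 96.7%, 100% and 89.9% under control and values of 83.2%, 74.3% and 88.3% under SAM68, without overlap. The difference was -13.6 points (quasi-binomial test, adjusted p = 0.565, exact permutation p = 0.1, the smallest that 3 against 3 libraries allow), and -8.71 points without normalization by length. In 2 further events on the B-length exon no library lay below 94.4%, and their differences were 1.88 and -1.38 points, so lower inclusion of the exon as such is not shown. In these chosen events both exons of ZNF274 were counted against the same skipping reads, 4 in the control and 12 in the SAM68 libraries, so these are not independent observations. The B-length exon of ZNF527 gave 100%, 100% and 77.6% under control and 100%, 69.8% and 67.5% under SAM68 (another event on it, with a mean of 37.2 reads, differed by 7.56 points in the other direction), and that of ZNF100 ranged from 57.4% to 87.4% under control and from 32.8% to 100% under SAM68.

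The comparison of SAM68 with control libraries asks which splicing events of these genes differ when SAM68 is overexpressed. No member event passed an adjusted p of 0.05 together with a change of at least 10 points. Over all genes 0.0256% of events did (17 of 66394), which is the background against which the members' count is read. Without the limit on the change 0.0964% of all events passed and again no member event, the smallest adjusted p among the members being 0.273. A likelihood ratio test on pooled counts, which ignores the spread between libraries, called 31 member events (6.4%), against 2.04% of all events. It called 4.63% in ZNF genes of other chromosomes and 1.87% in other genes of chromosome 19. At an unadjusted p under 0.05 there were 50 member events (10.3%), against 8.42% of all events, 8.93% in ZNF genes of other chromosomes and 10.1% in other genes of chromosome 19. In simulated counts unchanged events fell under this p less often than its nominal rate, so these shares are read against each other only. Of these 50, 32 were higher in the SAM68 libraries (6.61%, against 4.2% of all events) and 18 lower (3.72%, against 4.22%). The SAM68 libraries lay above the control libraries without overlap in 25 of 481 events with a PSI in every library, and below in 10. The share above was 5.2%, against 3.09% of all, 3.69% in ZNF genes of other chromosomes and 3.89% in other genes of chromosome 19. The share below was 2.08%, against 3.03%, 2.57% and 3.51% in the same order. A change of at least 10 points was seen in 22.5% of member events and 7.16% of all events. It was seen in 16.4% of events in ZNF genes of other chromosomes and 5.87% in other genes of chromosome 19. Among events with a mean of 20 to 40 reads these shares were 20%, 16.5%, 15.5% and 18.6%.

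Depth limits this comparison. Of the member events, 169 had a mean under 20 reads per library and only 19 a mean of at least 100. In simulated counts large shifts of the same size were set, upward from intermediate inclusion. The test recovered none of them at the depth of the median member event or below. Larger shifts, and shifts from low or high inclusion, were not simulated. The count of 0 thus does not show that no member event changed.

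**Figure D2:**
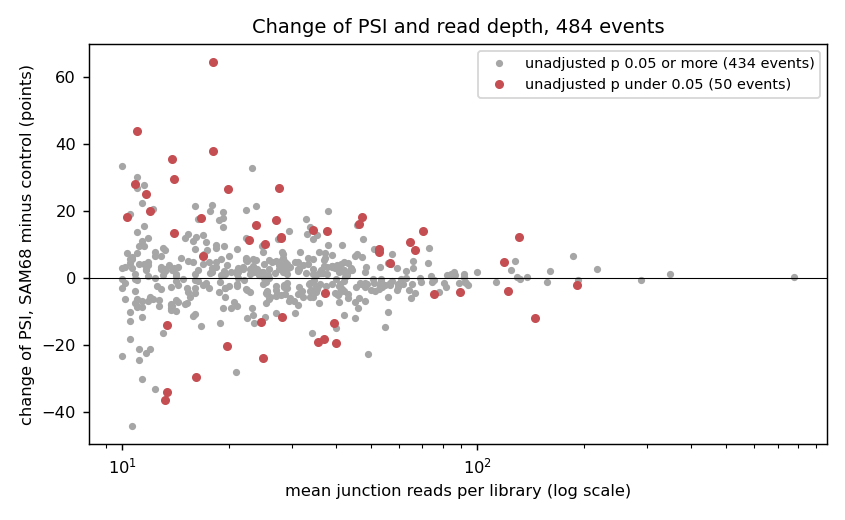
Each point is 1 of the 484 member events, with its mean junction reads per library on a log scale (horizontal axis) and the change of PSI, SAM68 minus control, in points (vertical axis). The 50 events with an unadjusted p under 0.05 are red, and the widest changes lie at the lowest read numbers.

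The events of smallest unadjusted p, 1 per gene, are given with the values of each library. None passed adjustment, and the adjusted p of these 12 events lay between 0.273 and 0.4308. Among coding exons, exon 4 of ZNF283 (ENSG00000167637.16, chr19:43833505-43833626, 122 nt) gave 46.3%, 67.4% and 54.7% under control and 100% in each SAM68 library. Skipping reads were 10 of 31 under control and 0 of 35 under SAM68, where a count of 0 allows up to 8.57% of reads (counting error only). This limit is a share of raw reads. Since the inclusion form is longer, the skipping share on the PSI scale could be higher. The unadjusted p was 0.0015 and the adjusted p 0.3074. A deeper event on this exon (mean 27.7 reads) gave 27.2%, 17.2% and 18.5% under control and 49.8%, 32.3% and 60.8% under SAM68, also without overlap (adjusted p = 0.4188), and is not independent of the first. The 83-nt exon 5 of ZNF846 (chr19:9759860-9759942) gave 71.0%, 57.4% and 55.1% under control and 90.2%, 100% and 100% under SAM68, again without overlap. In both genes the exon was included more in the SAM68 libraries, on fewer than 20 reads per library in the events of smallest p.

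The A-length exons of ZNF569 and ZNF91 shown above were also in this group. For the ZNF569 exon, exon 4 of the gene (ENSG00000196437.10), control PSI was 71.0%, 80.9% and 100% and each SAM68 library stood at 100%. Skipping was read 17 times in 169 control reads and 0 times in 110 SAM68 reads, where a count of 0 allows up to 2.73% of raw reads. The third control library had no skipping read either, so the groups met at 100%. ZNF91 encodes a repressor of SVA retrotransposons, and its exon 2 (ENSG00000167232.13) gave 60.4%, 100% and 60.4% under control and 100% in each SAM68 library. Of 52 control reads 8 were skipping reads, and of 67 SAM68 reads 0, a count that allows up to 4.48% of raw reads. The unadjusted p was 0.0035 for ZNF569 and 0.0063 for ZNF91, and the adjusted p 0.3801 and 0.4308.

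Other skipped exons of the 12 were 1 coding exon, 1 of a pseudogene and 1 of a 3′ UTR. The 115-nt exon of ZNF254 (chr19:24091901-24092015) gave 43.2%, 37.6% and 9.63% under control and 0%, 11.8% and 17.6% under SAM68, so the third control library lay within the SAM68 range. The 124-nt exon of the pseudogene ZNF826P (chr19:20406009-20406132), which matched no annotated exon and shared a junction window with another gene, gave 49.1%, 100% and 28.3% under control and 100%, 100% and 90.7% under SAM68, and another event on it overlapped between the groups. The 1161-nt exon of ZNF90 (ENSG00000213988.10, chr19:20125006-20126166), annotated in a 3′ UTR of 2 of its 6 transcripts, had the smallest p of all members. It gave 0%, 48.8% and 37.5% under control and 79.3%, 100% and 100% under SAM68, a difference of 64.3 points without overlap (unadjusted p = 0.0011, adjusted p = 0.273), on 5 to 32 reads per library.

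Exons in 5′ UTRs made up 5 of the 12, and they differed in direction. Of all 67 skipped exon events in 5′ UTRs, 12 had an unadjusted p under 0.05 (17.9%). Of the 272 on coding exons 28 did (10.3%), against 8.42% of all events. These 2 classes hold events of any PSI, with 36 and 83 events between 10% and 90%. In that range the share was 11.1% of all events and 13% of member events. It was 14.3% in ZNF genes of other chromosomes and 15.5% in other genes of chromosome 19. The classes were not compared by a test. The 64-nt exon of ZNF226 (chr19:44169565-44169628) was rarely included, with 1.01%, 0% and 1.68% under control and 7.86%, 4.23% and 5.17% under SAM68. It was among the deeper events, with 89 to 147 reads per library, and its inclusion reads were 5 under control and 29 under SAM68. The 110-nt exon of ZNF136 (chr19:12169282-12169391) had 0%, 4.93% and 21.4% against 35.2%, 35.2% and 39.5%, on 2 to 23 reads per library. Both lay higher in every SAM68 library. The 194-nt exon of ZNF417 (chr19:57915338-57915531) gave 57.9%, 57.1% and 0% under control and 0%, 0% and 13.0% under SAM68, a difference of -34.0 points, while another event on it (mean 13.3 reads) differed by -14.1 points, with overlap. The 52-nt exon 2 of ZNF530 (chr19:57600728-57600779) gave 89.98%, 95.6% and 78.2% against 35.01%, 61.8% and 78.2%, so that the groups of ZNF530 met at 78.2%. ZNF146, whose protein consists almost only of zinc fingers, had the deepest of these events, with 114 to 194 reads. Its 74-nt exon 2 (chr19:36218122-36218195) gave 100%, 91.6% and 96.03% under control and 93.7%, 73.9% and 83.9% under SAM68, a difference of -12.0 points with overlap (unadjusted p = 0.0044, adjusted p = 0.3903). It was -7.09 points without the second SAM68 library, and a deeper event on the same exon (mean 186 reads) differed by 6.61 points in the other direction, with 85.7%, 80.1% and 100% under control and 100%, 100% and 85.7% under SAM68.

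**Figure D3:**
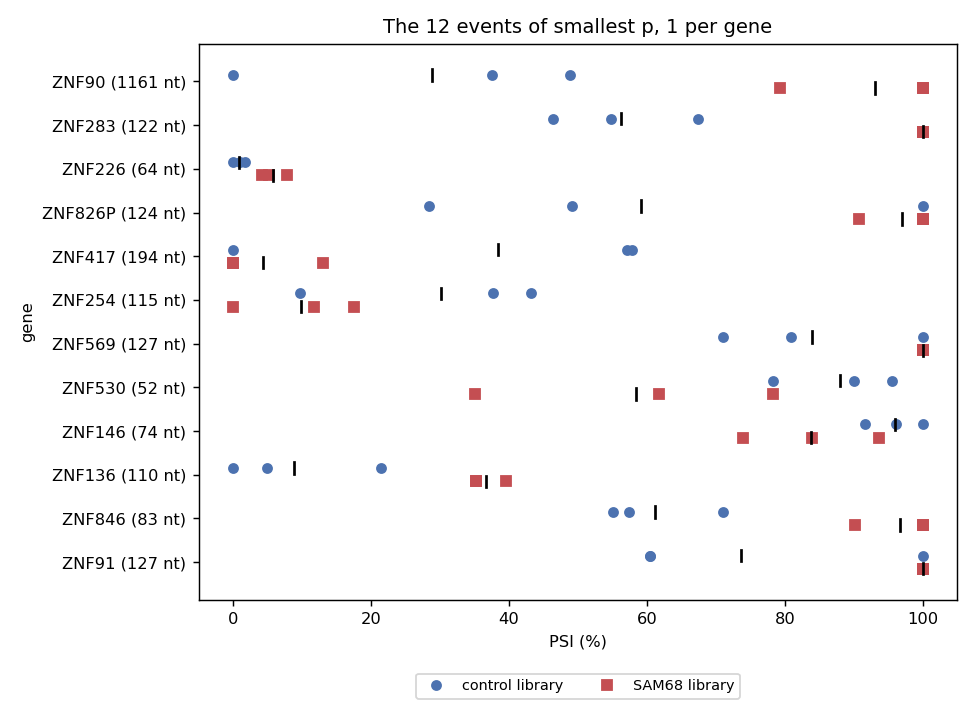
PSI of each library (horizontal axis, %) is shown for the 12 member events of smallest unadjusted p, 1 gene per line with the exon length, control libraries as circles, SAM68 libraries as squares and group means as black ticks. In ZNF90, ZNF283, ZNF226, ZNF136 and ZNF846 every SAM68 library lies above every control library, and in the others the groups overlap or meet at a shared value, as ZNF530 does at 78.2%.

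Tandem splice sites a few bases apart were a recurring form of the alternative 3′ and 5′ site events. Of the 42 alternative 3′ splice site events, 10 in 10 genes used sites 3 nt apart (23.8%, against 14.4% of such events in all genes), and in 7 of them the shorter exon had 96 nt and the longer 99 nt. The windows below show 12 nt before and 12 nt after the 3 alternative bases, with the AG of each site in capitals, for ZNF302 (chr19:34683140-34683166, plus strand), ZNF780A (chr19:40081903-40081929, minus strand), ZNF607 (chr19:37707998-37708024, minus strand), ZNF181 (chr19:34739511-34739537, plus strand) and ZNF100 (chr19:21744101-21744127, minus strand).
ZNF302: ttttcctgtaAGcAGgtctttccgtaa
ZNF780A: gtttcttttaAGcAGgaagttccattt
ZNF607: tttctttgtaAGcAGgacattccgtat
ZNF181: tcttcctgtaAGcAGgtctttctgtaa
ZNF100: tttctaataaAGcAGgtattgctctca
All 10 had AG at both sites, and 9 of the 10 were coding, where use of the first AG adds 1 codon. Of the 29 alternative 5′ splice site events, 3 used sites 4 nt apart (10.3%, against 3.95% of such events in all genes), each at the end of an exon that has the A length in its longer form. Windows of 9 nt before and after the 4 alternative bases, with the GT of each site in capitals, are given for ZNF101 (chr19:19677978-19677999, plus strand), ZNF556 (chr19:2873610-2873631, plus strand) and ZNF561 (chr19:9617036-9617057, minus strand).
ZNF101: ctggcctcgGTcgGTaagaagg
ZNF556: ctggcctcaGTagGTgaggata
ZNF561: ctggcctctGTggGTaagagta

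The first of the paired 3′ sites was the minor one in most genes. PSI, here the share of the longer form, had a median of 29.1% over the 10 genes and ranged from 16.5% in ZNF780B to 72.4% in ZNF100, with the first AG below 50% in all but ZNF181 and ZNF100. ZNF302 and ZNF181 lay on either side of 50%. For ZNF302 it was 14.1%, 12.5% and 21.1% under control and 21.6%, 27.0% and 25.7% under SAM68, and for ZNF181 55.2%, 53.8% and 81.0% under control and 56.8%, 53.9% and 67.5% under SAM68. In ZNF302 every SAM68 library lay above every control library (difference 8.87 points, adjusted p = 0.6701, exact permutation p = 0.1). In ZNF780B and ZNF607 every SAM68 library lay below every control library. ZNF780B gave 27.95%, 23.9% and 15.3% under control and 7.04%, 12.7% and 11.96% under SAM68 (difference -11.8 points, unadjusted p = 0.0565, adjusted p = 0.6701), and ZNF607 18.8%, 18.9% and 23.4% against 15.2%, 16.2% and 17.6%. For ZNF780A it was 28.8%, 29.3% and 28.3% under control and 27.1%, 34.8% and 19.6% under SAM68. None of the 10 had an unadjusted p under 0.05, and their changes ran from -11.8 points in ZNF780B to 8.87 points in ZNF302, 4 higher and 6 lower. At the paired 5′ sites, ZNF101 used both, with 34.3%, 45.4% and 53.1% of the longer form under control and 37.5%, 60.7% and 69.5% under SAM68. ZNF556 gave 100%, 80.3% and 89.8% under control and 100% in each SAM68 library, the only tandem event with an unadjusted p under 0.05 (difference 9.97 points, unadjusted p = 0.0126, adjusted p = 0.5134), and the groups met at 100%. ZNF561 used mostly the longer form, with a mean over the 6 libraries of 98.2%.

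Mutually exclusive exon events of the neighbouring paralogs ZNF562 and ZNF561 paired an 89-nt exon with the A-length exon. PSI is the share of the exon nearer the 5′ end, the 89-nt one. The A-length exons of these 2 genes were 98.4% identical, and reads shared between them were not checked for these events. In ZNF562 (chr19:9659379-9659467) the share was 57.5%, 54.0% and 33.0% under control and 65.5%, 63.2% and 70.1% under SAM68, higher without overlap by 18.1 points (adjusted p = 0.5681), and by 10.5 points without the third control library. Of 2 further events on the same exon, 1 was higher without overlap by 19.9 points and 1 overlapped, with 79.4%, 94.1% and 65.6% under control and 96.3%, 84.8% and 100% under SAM68 (difference 13.99 points). In ZNF561 (chr19:9618091-9618179) it was 64.2%, 50.8% and 75.6% under control and 63.4%, 25.1% and 33.9% under SAM68, a difference of -22.7 points with overlap (adjusted p = 0.5888). In ZNF274 the 78-nt exon that stood against the A-length exon gave 14.1%, 18.4% and 23.6% under control and 8.9%, 22.2% and 23.6% under SAM68. A shallower event on that exon (mean 11.3 reads) gave 100% in each control library and 78.8%, 100% and 86.1% under SAM68, a difference of -11.7 points with the groups meeting at 100%. Other 3′ and 5′ site events with many reads overlapped between the groups as well. Their means were 87.0% and 85.7% for sites 41 nt apart in ZNF227 (97.3% to 100% over the libraries in another event on the same site), 33.5% and 29.3% for sites 561 nt apart in ZNF558, and 80.1% and 85.0% for sites 38 nt apart in ZNF653. Of 6 retained introns, 5 had a PSI under 10%. The exception was the 143-nt intron in the 5′ UTR of ZNF226, with 77.8%, 90% and 38.1% under control and 100%, 58.6% and 83.3% under SAM68.

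Junction reads per gene were examined next, as the tables hold no counts per gene. Each gene was represented by its most-read event, scaled to reads per 1000000 of such reads (rpm). KHDRBS1, the overexpressed gene, averaged 319 ± 8.93 rpm (SD, n = 3) under control and 1256 ± 23.1 rpm (SD, n = 3) under SAM68, a log2 fold change of 1.98 (standard error 0.047, limma, adjusted p = 1.36e-21), and plasmid reads count with those of the gene. Of the 146 ZNF genes 0 passed an adjusted p of 0.05 with a log2 fold change of at least 1, against 0.0493% of all 10152 genes, and 0 passed the adjusted p alone, against 0.404%. At an unadjusted p under 0.05 there were 16 (11%, against 12.1% of all), of which 5 were higher (3.42%, against 3.73% of all) and 11 lower (7.53%, against 8.32%). The median log2 fold change of the 146 genes was -0.11, against -0.03 over all genes and -0.08 in the 159 ZNF genes of other chromosomes, and 58.9% were lower, against 57% of all genes. Together the 146 genes had 1307 ± 49.2 rpm (SD, n = 3) under control and 1247 ± 36.9 rpm (SD, n = 3) under SAM68, with overlapping ranges of 1256 to 1355 and 1206 to 1277. In bulk RNA, fewer cells of a kind and less RNA per cell cannot be told apart.

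Among the genes with the largest differences at an unadjusted p under 0.05, ZNF844 had 3.62, 6.21 and 4.19 rpm under control and 8.84, 8.81 and 8.08 rpm under SAM68. Its log2 fold change on the log2(rpm + 0.5) scale was 0.84 (standard error 0.28, limma, adjusted p = 0.198). ZNF414 had 19.5, 20.2 and 19.3 rpm against 24.0, 26.8 and 25.2 rpm. These 2 genes were higher in every SAM68 library, while ZNF433, ZNF260 and ZNF226 had higher means with overlapping libraries. In the other direction ZNF43 had 6.21, 6.37 and 7.87 rpm under control and 2.53, 3.86 and 3.30 rpm under SAM68 (log2 fold change -0.98, standard error 0.32, adjusted p = 0.181). ZNF490 had 5.18, 2.71 and 3.68 rpm against 0.948, 2.39 and 0.734 rpm. ZNF880 and ZNF20 were also lower in every SAM68 library and ZNF613 overlapped. ZNF490, ZNF20 and ZNF613 met the minimum of reads only through the control group. Their SAM68 libraries held 6, 13 and 4 reads, 9, 9 and 4 reads, and 8, 9 and 0 reads, so these falls are not independent of the minimum. Among the 8 genes with the most reads, ZNF227 had 31.1, 32.7 and 28.8 rpm under control and 25.1, 26.4 and 18.9 rpm under SAM68, lower without overlap (log2 fold change -0.40, adjusted p = 0.258). ZNF428, ZNF146, ZNF787, ZNF585A, ZNF226, ZNF85 and ZNF507 overlapped between the groups. Non-overlapping groups were found in 6 member genes in the higher direction (4.11%, against 6.03% of all genes) and 14 in the lower (9.59%, against 10.8%).

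**Figure D4:**
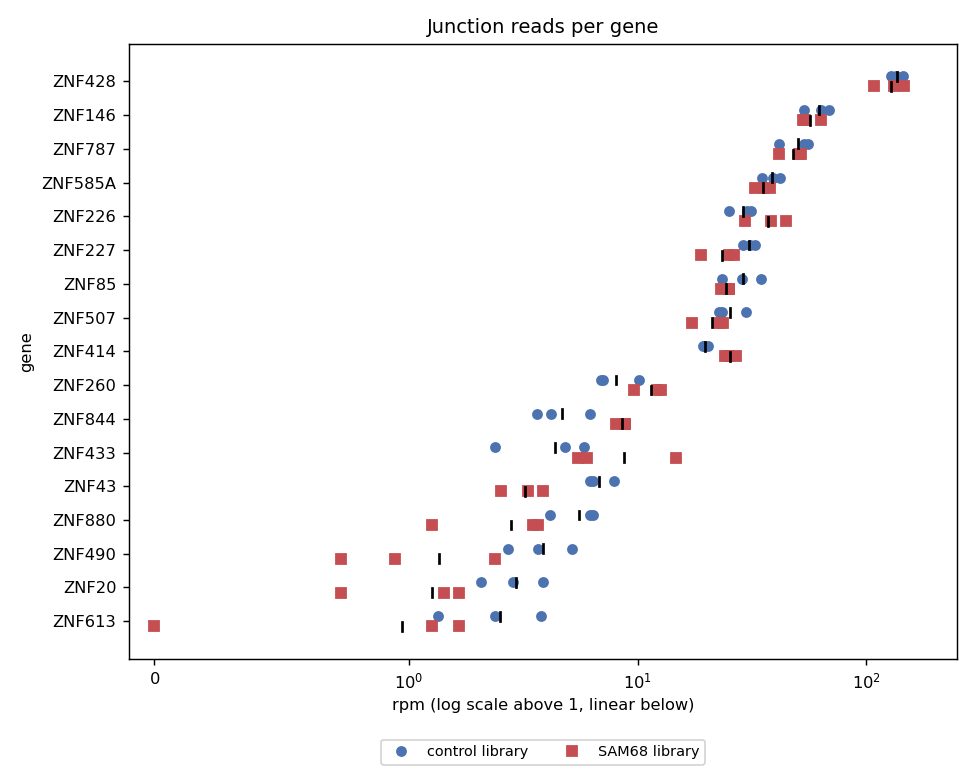
Junction reads of each library in rpm (horizontal axis, log scale above 1 and linear below) are shown for the 17 named ZNF genes, sorted by their mean, with control libraries as circles, SAM68 libraries as squares and group means as black ticks. Values are not scaled for the junctions counted, so they compare libraries within a gene. ZNF844 and ZNF414 were higher in every SAM68 library. ZNF43, ZNF490, ZNF880, ZNF20 and ZNF227 were lower in every SAM68 library. ZNF490, ZNF20 and ZNF613 met the minimum of reads only through the control group.

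Of a list of partners of KRAB proteins, 24 genes had junction reads, and none was called with the fold limit. TRIM28 had 287 ± 7.97 rpm (SD, n = 3) under control and 285 ± 9.41 rpm (SD, n = 3) under SAM68. Of the 24, 7 had an unadjusted p under 0.05 (29.2%, against 12.1% of all genes), and all 7 were lower. Over all genes 8.32% were lower at this p and 3.73% higher. The list was read more deeply, with a median of 312 reads against 150 over all genes. The shares were not compared by a test. DNMT3A, a DNA methyltransferase, passed the adjusted p but not the fold limit, with 26.2, 25.8 and 22.6 rpm under control and 13.7, 16.2 and 14.7 rpm under SAM68 (log2 fold change -0.72, standard error 0.17, limma, adjusted p = 0.0467). With 1 library left out its log2 fold change stayed between -0.79 and -0.67. The adjusted p was 0.2797, 0.1946 and 0.0899 without the first, the second and the third control library and 0.1481 without the first SAM68 library, and it passed without the second (0.0283) or the third (0.0487). The histone deacetylase HDAC1 had 307, 214 and 234 rpm against 199, 183 and 195 rpm (adjusted p = 0.0531), and its log2 fold change went from -0.37 to -0.22 without the first control library, which also stands apart in KRT8. Its adjusted p ran from 0.0402 to 0.3683 with 1 library left out. ZNF274 belongs to this list and to the 146 genes, and its libraries overlapped.

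The skipped exon table held 16951876 to 19737729 junction reads per library, and the member events together 16458 to 20228. Of the markers looked up, only the epithelial keratins KRT8, KRT18 and KRT7 were among the genes tested. KRT8 had 520, 253 and 237 rpm under control and 248, 235 and 230 rpm under SAM68, the first control library standing apart (log2 fold change -0.41, and -0.043 without that library). KRT18 was higher in every SAM68 library, with 471, 484 and 493 rpm against 521, 524 and 531 rpm (adjusted p = 0.3055), and KRT7 lower in every one, with 4.49, 3.03 and 3.52 rpm against 1.26, 1.84 and 2.20 rpm (adjusted p = 0.3832). The part of these differences in the other results was not tested. The other markers were epithelial (KRT19, EPCAM, CDH1), of lung (NKX2-1, NAPSA, SFTPB) and of other cell types (PTPRC, CD3E, PECAM1, COL1A1, ACTA2, ALB). None of them was among the genes tested. The tables list only genes with an alternative event, and a minimum of reads was set. Absence can thus mean few reads or no such event, and the identity of the cells was not checked further.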

How the data were processed

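Total RNA of NCI-H1975 cells was sequenced in 3 libraries per group. Per the labels' processing notes the authors used CASAVA 1.4, fastp 0.20.0 and HISAT2 2.1.0 with GRCh38, and per the paper rMATS, whose version is not given in the sources used here. The deposited tables hold, for 5 types of event, the authors' raw junction counts of the inclusion and skipping form as lists of 3 libraries, with effective lengths, inclusion levels as fractions, and rMATS p-values, FDR and difference scores, which were not used. In the A3SS table a spreadsheet had regrouped the digits of some lists. Of these, 162 were recovered from the listed levels and 113 left out, none of them a member.

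Member and other events averaging 10 or more reads were tested with a quasi-binomial model, its dispersion moderated within type by limma 3.58.1 (R 4.3.3) and set to at least 1, with Benjamini-Hochberg adjustment within type over all events. Calls needed an adjusted p under 0.05 and 10 points of PSI. Genes were tested with limma (eBayes with trend) on log2(rpm + 0.5). The lists were split into whole counts per library. The count test planned for genes was not run on them, and edgeR and DESeq2 were not used. Single events were also given an exact two-sided permutation p. The tests were checked on simulated counts. A first criterion, on the share of shifts recovered over all depths, was not met by the event test, and it was replaced by criteria on bias, false calls and recovery in deep events, which were met. The event test made no false call there, recovered no shift at the depth of the median member event or below, and gave unchanged events an unadjusted p under 0.05 less often than the nominal rate. Nothing states that equal list positions pair libraries, and p-values measure the spread between these libraries. Reads carry no molecular identifiers, so limits for a count of 0 (3 reads) cover counting error only. They are shares of raw reads, before normalization by length.

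Named events were the 12 of smallest p (1 per gene) and, for skipped exons of the lengths usual for the KRAB A and B boxes and each other type, up to 3 with the most reads and a PSI of 10% to 90%. Named genes were the 5 largest rises and falls at an unadjusted p under 0.05 and the 8 with the most reads. ZNF556 and the other genes of the tandem sites were chosen after their values were seen. The members and lists were chosen with earlier results of these data known. Exons were annotated with GENCODE 44. Alternatives covered the treatment of the spread, the minimum of reads, the family of adjustment, the limits, length normalization, the scaling and reads that stand for a gene, and each library left out.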

Additional observations from a re-analysis of the deposited data

How the results depend on the processing

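The count of 0 member events called held under every alternative run except the likelihood ratio test on pooled counts, which ignores the spread between libraries and called 31 member events (19 higher, 12 lower, in 23 genes) and 1356 events over all genes (2.04%). It was 0 for logit-scale limma and for unshared dispersions, where 43 and 24 member events had an unadjusted p under 0.05. Using 1 dispersion per type, an alternative chosen after seeing the data, also gave 0 member events, and 93 over all genes in place of 17. With 1 library left out the count stayed 0 to 0, with 17 to 24 member events at an unadjusted p under 0.05. The count of 0 genes also held, from 0 to 0 with 1 library left out, and with median-of-ratios scaling, likewise added after seeing the data, the median log2 fold change of the 146 genes was -0.08 and of all genes -0.0042. The depth of 27.1 reads per median member event limits the event counts, since the event test recovered no simulated shift at that depth or below, and with no call made none could be lost.

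Leaving out 1 library turned the direction of 9 named events, which are given as the lowest and highest change over the 6 fits. These were -3.86 to 5.56 points for ZNF814, -5.48 to 3.66 for the A-length exon of ZNF283, -9.14 to 0.737 for that of ZNF274, -23.8 to 9.74 for the 96-nt exon of ZNF100, -5.49 to 2.15 for ZNF780A, -5.21 to 2.4 for ZNF227, -10.9 to 2.13 for ZNF558, -3.24 to 23.0 for the intron of ZNF226 and -3.13 to 4.23 for the exclusive exons of ZNF274. For genes the log2 fold change ran from -0.19 to 0.041 in ZNF787 and from -0.19 to 0.030 in ZNF428. No alternative turned the direction of the 12 events of smallest p. Their size was less stable, and leaving out 1 library moved 20 of the 28 named events and 11 of the 17 named genes by over 1.5 times. The third control library did so for ZNF826P (22.4 points, and 58.2 without the second), ZNF417 (-53.2), ZNF254 (-30.7), ZNF562 (10.5) and ZNF527 (-20.9), the first control library for ZNF569 (9.56), the first SAM68 library for ZNF530 (-17.9) and ZNF527 (-23.9), the second for ZNF146 (-7.09), ZNF561 (-14.9) and ZNF527 (-8.77) and the third for ZNF527 (-7.64). The change ran from 4.84 to 20.9 points in ZNF101 and from 1.63 to 10.3 in ZNF653. Among genes the log2 fold change was -0.55 in ZNF880 without the first SAM68 library, 0.44 in ZNF433 without the second (0.53 without the second control library), and -0.25 in ZNF227, 0.22 in ZNF226 and -0.54 in ZNF613 without the third. Without normalization by length 5 named events moved as far, to 29.2 points in ZNF283, 9.30 in ZNF569, 16.7 in ZNF91, and -8.71 and -1.84 for the B-length and A-length exons of ZNF274. With reads summed over all events of a gene the log2 fold change was -0.52 in ZNF43, -0.76 in ZNF490, -0.20 in ZNF227, 0.50 in ZNF433, -0.55 in ZNF20 and -0.35 in ZNF613. Leaving out each library in turn for the cofactor and keratin genes was chosen after seeing the data. No paired analysis was possible because the deposited lists carry no replicate numbers. DESeq2, edgeR and its RLE factors were planned and not run.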
